A study of Mus musculus with 10 samples.

Results

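Mouse embryonic stem cells that lack Rad23b and in which Xpc was also knocked down were compared with wild-type cells of the same line, JM8.N4. The comparison rests on 3 of the 10 libraries of the series. The first carries Rad23b-/- with Xpc hairpin KD1 (knockdown 1), the second carries Rad23b-/- with the independent Xpc hairpin KD2 (knockdown 2), and the third is wild type. Rad23b loss is therefore common to both knockdown libraries, and no library holds the Xpc knockdown alone. A Rad23b-/- library without a hairpin, called Rad23b-null below, was sequenced in the same lane and is set beside the results where it helps. The members described are the genes that lay at least 2-fold from wild type in the same direction with both hairpins. Poly-A RNA was read as single-end reads of 50 bases. The sources used here do not state the nature of the Rad23b allele, the number of clones or the hairpin sequences.

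XPC, RAD23B and centrin 2 form the complex that finds helix-distorting DNA damage and starts global-genome nucleotide excision repair. XPC binds the damaged DNA, and RAD23B stabilises XPC and can carry ubiquitylated proteins to the proteasome. In embryonic stem cells the same complex has been described as a coactivator of transcription that works with OCT4 (gene Pou5f1) and SOX2, and the study examined that role.

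Each group had 1 library, so no replicate error and no test were available. The distance between the hairpins is the only spread the libraries offer. Both hairpins are compared with the same wild-type library, so an error in it enters both alike and does not show in this distance. Levels are given as RPKM (reads scaled by gene length and by library size), and the difference from wild type is the log2 ratio of RPKM + 1, which understates the difference of low genes. Wild-type levels below are those of the knockdown 1 table; in the knockdown 2 table the same library stood at 1.009 times those values. By the spacing of low RPKM values, the knockdown 1 library was about 1.23 times and the knockdown 2 library about 1.26 times as deep as wild type. These are the most common ratios, held by 69 of 4642 genes and by 47 of 4550 genes. The authors' scaling enters them too, so they are rough, and read totals are unknown. A gene was tested when its RPKM reached 1 in the knockdown or the wild-type library of both tables, which 12082 protein-coding genes did. Over these, the log2 ratio of knockdown 1 minus that of knockdown 2 had a standard deviation of 0.26. The median log2 ratio of all 14546 genes of any type that met this level was -0.15 in knockdown 1 and -0.15 in knockdown 2, a shift that touches every difference below.

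The targeted genes were read first. Xpc (chr6:91439298-91465878, minus strand, mm9) had 0.915 RPKM in knockdown 1 and 0.895 RPKM in knockdown 2, against 8.34 RPKM in Rad23b-null cells and 8.51 RPKM in wild type. Both hairpins thus left 10.8% and 10.4% of the wild-type level, and the library without a hairpin kept 95.5%. Rad23b (chr4:55362914-55405109, plus strand, mm9) had 35.8 RPKM in knockdown 1, 52.5 RPKM in knockdown 2 and 43.9 RPKM in Rad23b-null cells, against 223 RPKM in wild type. Reads over Rad23b remained in every Rad23b-/- library, at 16.1%, 23.3% and 19.1% of wild type, and the tables do not show which exons they cover. Cetn2, which encodes centrin 2, had 37.9 RPKM and 36.8 RPKM with the hairpins, against 43.0 RPKM in wild type.

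With both hairpins, 172 of the 12082 protein-coding genes (1.42%) were at least 2-fold higher than wild type and 191 (1.58%) were at least 2-fold lower. Taken alone, knockdown 1 had 275 genes higher (2.26%) and 292 lower (2.4%), and knockdown 2 had 271 higher (2.22%) and 296 lower (2.42%). The genes that were higher stood low in wild type, with a median of 1.96 RPKM there, 62 of them under 1 RPKM and 6 listed at 0. The genes that were lower had a median of 24.9 RPKM in wild type, against 13.6 RPKM for all 12082. The rule sets part of this difference in level. A gene under 1 RPKM in wild type cannot be called lower, and it is tested only where the knockdown libraries lift it. The higher genes had a median log2 ratio of 1.38 in knockdown 1 and 1.40 in knockdown 2, and the lower genes had medians of -1.26 and -1.34. The median gap between the hairpins was 0.19 for the higher genes and 0.13 for the lower genes, against 0.13 for all 12082, on the log2 scale. Only 17 of the higher and 14 of the lower genes were at least 4-fold from wild type with both hairpins. The Rad23b-null library shares the wild-type control, so its values are given only side by side: its median log2 ratio was 1.46 over the higher genes and -1.41 over the lower genes. Of its own protein-coding genes tested, 2.94% were at least 2-fold higher than wild type and 3.39% lower. When each log2 ratio was centred on the median of all genes, the split became 254 higher and 116 lower. Lower genes named below that missed 2-fold after centring include Nanog, Esrrb, Tcl1, Lefty1, Kit, Egr1, Hspa5, Hyou1, Psmc5 and Fasn. In bulk RNA, fewer cells of a kind and less RNA per cell cannot be told apart.

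**Figure D1:**
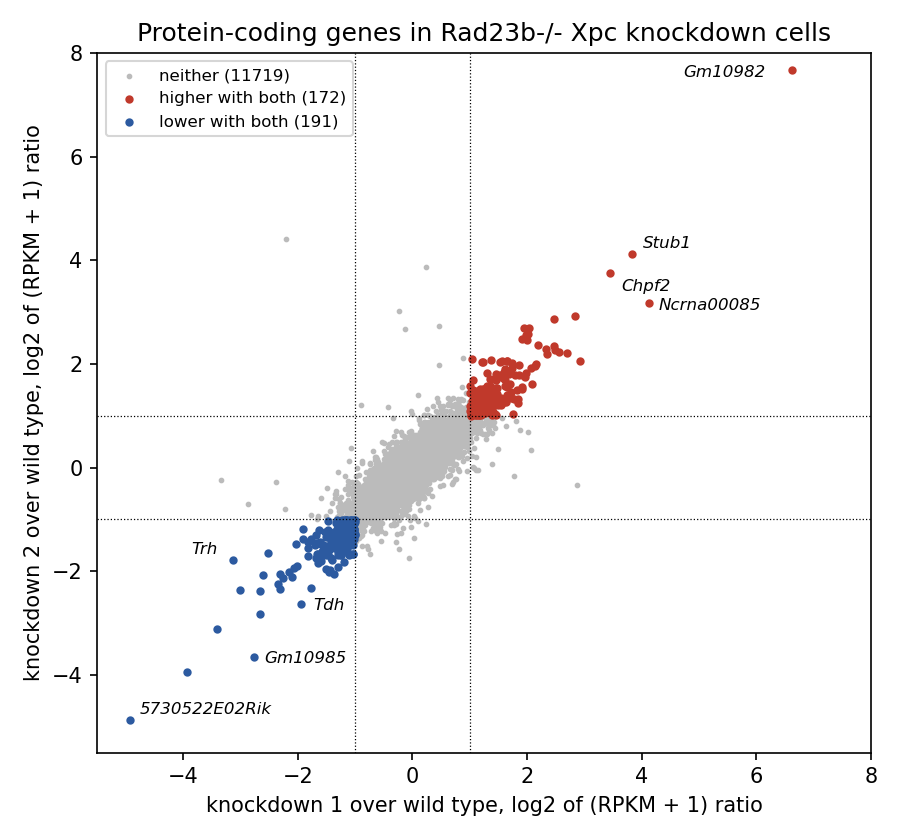
Each point is 1 of 12082 protein-coding genes; the x axis is the log2 ratio of RPKM + 1 of knockdown 1 over wild type and the y axis that of knockdown 2, with dotted lines at 2-fold. The 172 red genes were higher and the 191 blue genes lower with both hairpins; Gm10982 lies far out at 6.62 and 7.66, and 5730522E02Rik at -4.93 and -4.88.

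Chromosome 11 stood apart from the rest of the genome and touches the lower genes. It held 64 of the 191 lower genes (33.5%), although it held 8.14% of the genes tested, and 6.5% of its 984 genes were called lower. The median log2 ratio of its genes was -0.53 in knockdown 1, -0.51 in knockdown 2 and -0.53 in Rad23b-null cells. The other 18 autosomes had medians between -0.21 and -0.11 in knockdown 1 and between -0.21 and -0.04 in knockdown 2. In each of the 12 bins of 10 Mb with 20 or more of its genes tested, the median lay between -0.64 and -0.37 in knockdown 1 and between -0.66 and -0.34 in knockdown 2. Below the median of all genes with both hairpins lay 705 of the 984 (71.6%). Without chromosome 11, 165 genes were higher (1.49% of 11098) and 127 were lower (1.14%). DNA copy number was not measured, and the part of this shift in the results on single genes of chromosome 11 was not tested. Of 4 Y-linked genes tested, 2 were at least 2-fold higher with both hairpins. Eif2s3y, which encodes a translation initiation factor subunit, had 15.1 RPKM in knockdown 1 and 14.7 RPKM in knockdown 2, against 2.20 RPKM in wild type. Uty, the Y-linked counterpart of a histone demethylase gene, had 2.90 RPKM and 3.31 RPKM with the hairpins, against 0.301 RPKM in wild type. The other 2 did not pass: Ddx3y had log2 ratios of 0.64 in knockdown 1 and 0.99 in knockdown 2, and Gm3395 had 0.17 and 0.50.

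**Figure D2:**
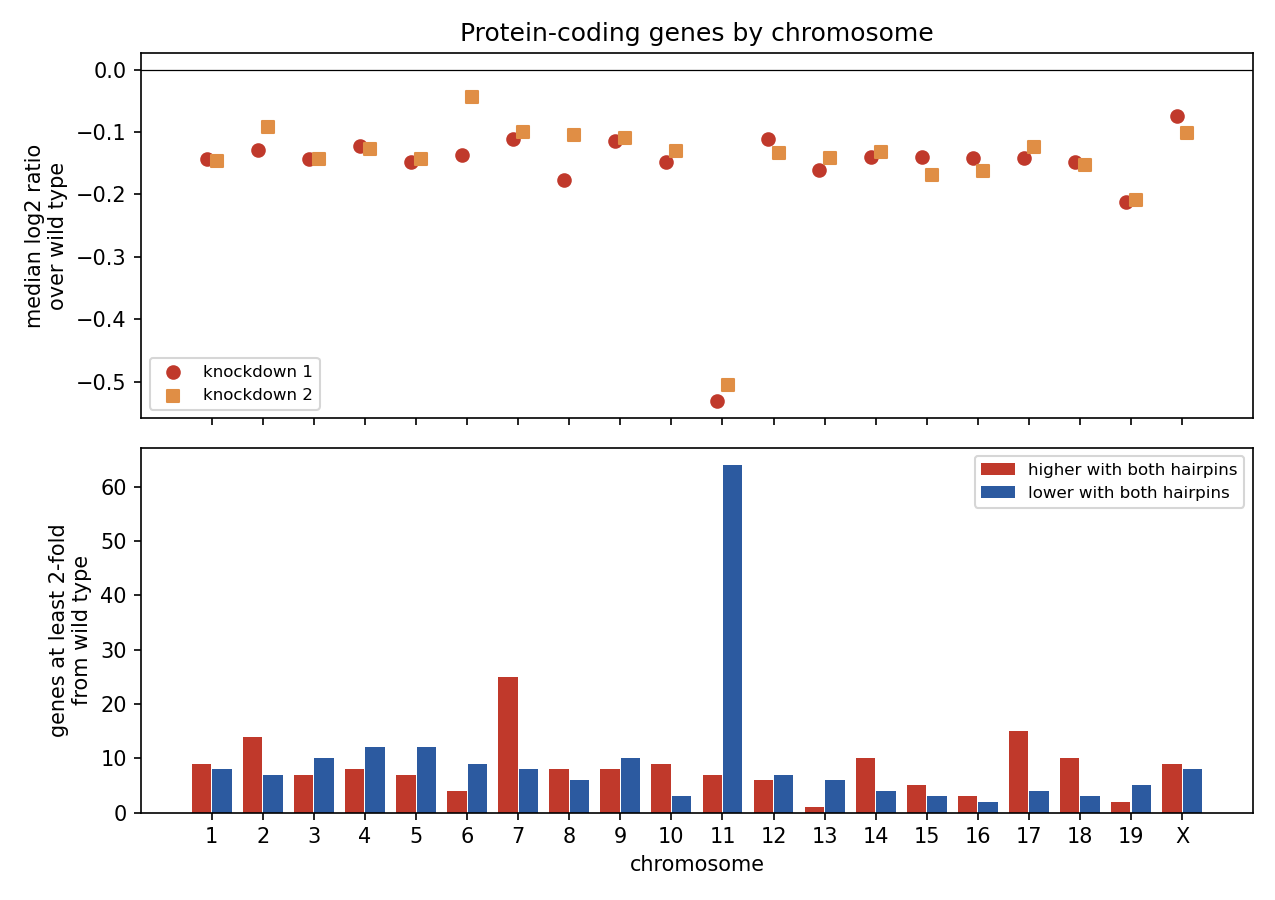
The upper panel gives the median log2 ratio over wild type of the protein-coding genes of each chromosome (circles, knockdown 1; squares, knockdown 2), and the lower panel the number of genes at least 2-fold higher or lower with both hairpins. Chromosome 11 has the lowest medians in the upper panel, -0.53 and -0.51, and 64 lower genes in the lower panel.

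Some of these genes share their listed coordinates with others, and the sources do not say whether such a value belongs to the gene or to the merged locus. This holds for 44 of the higher and 66 of the lower genes. Among those named below it holds for Stub1, Chpf2, 5730522E02Rik, Nnat, Tfcp2l1, Tbx3, Gbx2, Fbxo15, Pecam1, Sox2, Sall4, Lin28a, Nhp2, Dkc1, Abcf1, Ddit3, Herpud1, Egr1, Acta1, Lima1, Tdh, Shmt1, Fdps, Dnmt3l, Bmp4, Stk31, Ndrg1, Psmc5, Gas2 and Slc7a7. Of 8804 genes on shared coordinates with a wild-type value above 0, 10 had the same value as another gene there.

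Naive pluripotency is the state of the early epiblast that mouse stem cells hold in culture with LIF. Of 15 genes of this state tested, 7 were at least 2-fold lower with both hairpins and 0 were higher, against the background shares of 1.58% and 1.42%. This list and the gene lists below were chosen with earlier results of these data known. Their shares of called genes are therefore not independent of the data. The list median was -0.87 in knockdown 1 and -0.79 in knockdown 2 on the log2 scale, against -0.15 for all genes with each hairpin. In Rad23b-null cells, without a hairpin, it was -1.07, against -0.18 for all genes. None of the 7 lies on chromosome 11. After centring on the median of all genes, Esrrb and Tcl1 no longer passed 2-fold with both hairpins. Tfcp2l1, a transcription factor of the LIF-dependent network, had 62.0 RPKM in knockdown 1 and 60.8 RPKM in knockdown 2, against 173 RPKM in wild type. Klf4 (chr4:55540012-55545347, minus strand, mm9), a Krüppel-like factor that helps hold the naive state, had 30.1 RPKM and 29.2 RPKM with the hairpins, against 76.7 RPKM in wild type. Esrrb, an orphan nuclear receptor that acts with NANOG, had 77.0 RPKM in knockdown 1 and 60.2 RPKM in knockdown 2, against 157 RPKM in wild type. All 3 encode transcription factors.

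The other 4 lower naive genes were Dppa3, Tcl1, Tbx3 and Prdm14. Dppa3, a maternal factor that protects DNA methylation patterns in the zygote, had 29.0 RPKM in knockdown 1 and 19.6 RPKM in knockdown 2, against 81.6 RPKM in wild type. Tcl1, a coactivator of AKT kinases, had 30.8 RPKM and 19.8 RPKM with the hairpins, against 64.3 RPKM in wild type. Tbx3, a T-box factor, had 13.9 RPKM and 11.1 RPKM, against 39.0 RPKM in wild type. Prdm14, which restrains FGF signalling and de novo methylation in naive cells, had 6.44 RPKM and 7.01 RPKM, against 19.3 RPKM in wild type. For Dppa3 and Tcl1 knockdown 2 lay further from wild type than knockdown 1, with log2 ratios of -1.46 and -2.02 for Dppa3 and of -1.04 and -1.66 for Tcl1.

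The remaining 8 naive genes did not pass 2-fold with both hairpins. Klf5 lay above wild type, with 78.0 RPKM in knockdown 1 and 78.3 RPKM in knockdown 2, against 47.6 RPKM in wild type, and so did Gbx2, with 5.48 RPKM and 5.98 RPKM, against 3.27 RPKM. The Krüppel-like genes therefore lay on different sides of wild type. Zfp42 (REX1), a widely used stem cell marker, stood at 42.4 RPKM in knockdown 1 and 42.3 RPKM in knockdown 2, against 43.5 RPKM in wild type. Klf2, Nr5a2, Nr0b1, Pecam1 and Fbxo15 had log2 ratios between -0.87 and -0.29 across both hairpins, below wild type in each case.

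Core pluripotency genes lay nearer to wild type. Of 11 tested, 1 (Nanog, 9.09%) was at least 2-fold lower with both hairpins and 0 were higher, against background shares of 1.58% and 1.42%. The list median was -0.09 in knockdown 1, -0.27 in knockdown 2 and -0.48 in Rad23b-null cells. After centring on the median of all genes, Nanog missed 2-fold in knockdown 1. Nanog, the homeodomain factor whose level varies most between stem cells, had 243 RPKM in knockdown 1 and 209 RPKM in knockdown 2, against 499 RPKM in wild type. Pou5f1, which encodes OCT4, had 1468 RPKM and 1431 RPKM with the hairpins, against 1562 RPKM in wild type. Sox2 had 135 RPKM in knockdown 1 and 133 RPKM in knockdown 2, against 179 RPKM in wild type. All 11 core genes stayed abundant in every library, as the stem cell label requires. Tdgf1, a Nodal co-receptor gene, lay above wild type at 1593 RPKM in knockdown 1 and 1304 RPKM in knockdown 2, against 1059 RPKM. Utf1, a chromatin factor gene and OCT4-SOX2 target, had 250 RPKM and 229 RPKM with the hairpins, against 331 RPKM in wild type, and Fgf4, a growth factor gene and another such target, had 78.9 RPKM and 93.4 RPKM, against 84.9 RPKM. Sall4, Lin28a, Dppa2, Dppa4 and Dppa5a had log2 ratios between -0.44 and 0.21 across both hairpins. Fibroblast markers, which would mark feeder or stromal cells, were scarce: their summed level was 7.78 RPKM in knockdown 1 and 7.09 RPKM in knockdown 2, against 3.76 RPKM in wild type, and 2 of the 12 genes were tested. Twist1, a mesenchymal transcription factor gene and 1 of these 2, was called higher, with 5.00 RPKM and 4.82 RPKM with the hairpins, against 1.71 RPKM in wild type. Col3a1, Fap and Postn were listed at 0 in both knockdown libraries, and the part of such cells in the results was not tested.

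**Figure D3:**
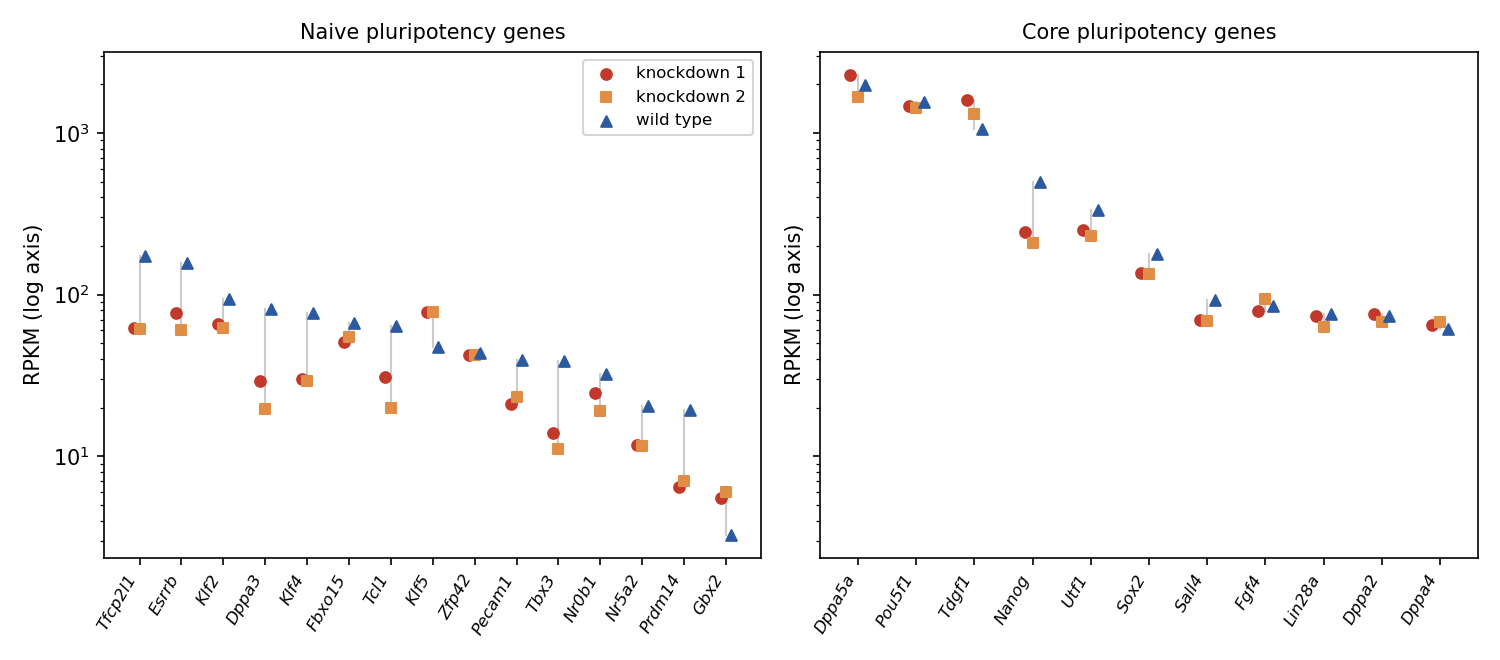
RPKM on a log axis of each naive (left) and core (right) pluripotency gene in knockdown 1 (circles), knockdown 2 (squares) and wild type (triangles). The triangles stand above both other symbols for Tfcp2l1, Esrrb, Dppa3, Klf4, Tcl1, Tbx3 and Prdm14 and for Nanog, whereas Pou5f1 has 1468, 1431 and 1562 RPKM.

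Other stem cell coactivators and the signalling inputs of pluripotency held few called genes, beside background shares of 1.42% higher and 1.58% lower. Of 6 genes for dyskerin complex members and ABCF1, 0 passed 2-fold with both hairpins; Nhp2, on chromosome 11, came nearest with 171 RPKM in knockdown 1 and 144 RPKM in knockdown 2, against 342 RPKM in wild type. Dkc1, which encodes dyskerin, had 211 RPKM and 191 RPKM with the hairpins, against 271 RPKM in wild type, and Abcf1 had 65.3 RPKM and 69.1 RPKM, against 86.3 RPKM. Of 9 LIF and STAT3 pathway genes, 0 were called in either direction. Among 12 Nodal and primed-state genes tested, 1 was lower: Lefty1, an inhibitor of Nodal, had 46.9 RPKM in knockdown 1 and 45.8 RPKM in knockdown 2, against 98.5 RPKM in wild type. Its relative Lefty2 had 74.1 RPKM and 61.9 RPKM with the hairpins, against 142 RPKM in wild type, with a log2 ratio of -0.93 in knockdown 1 that missed 2-fold. Fgf5, the usual marker of primed cells, stayed under 1 RPKM in all 3 libraries.

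ATF4 is a transcription factor made when translation initiation is limited, through phosphorylation of eIF2 alpha, and its targets serve amino acid supply, redox balance and cell death. Of 18 genes of this response tested, 7 (38.9%) were at least 2-fold higher with both hairpins and 0 lower. Among all protein-coding genes tested, 1.42% were higher and 1.58% lower. Above wild type with both hairpins lay 16 of the 18. The list median was 0.53 in knockdown 1, 0.77 in knockdown 2 and 0.69 in Rad23b-null cells. Ddit4, which encodes the mTOR inhibitor REDD1, had 283 RPKM in knockdown 1 and 284 RPKM in knockdown 2, against 104 RPKM in wild type. Trib3, a pseudokinase gene that feeds back on ATF4, had 49.3 RPKM and 56.7 RPKM with the hairpins, against 21.7 RPKM in wild type. Chac1, which encodes a glutathione-degrading enzyme, had 31.0 RPKM in knockdown 1 and 42.4 RPKM in knockdown 2, against 14.9 RPKM in wild type. In all 3 genes both hairpin libraries lay above wild type, and for Trib3 and Chac1 knockdown 2 was the higher of the pair.

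Ddit3, which encodes CHOP, had 21.4 RPKM in knockdown 1 and 27.0 RPKM in knockdown 2, against 9.34 RPKM in wild type. Nupr1, a small chromatin protein gene, had 27.4 RPKM and 34.2 RPKM with the hairpins, against 9.64 RPKM in wild type. Stc2, a secreted glycoprotein gene, had 36.4 RPKM and 38.03 RPKM, against 12.4 RPKM in wild type. Vldlr, a lipoprotein receptor gene, completed the 7 with 11.6 RPKM in knockdown 1 and 17.1 RPKM in knockdown 2, against 3.37 RPKM in wild type. The highest-expressed members lay nearer to wild type: Atf4 itself had 335 RPKM in knockdown 1 and 330 RPKM in knockdown 2, against 215 RPKM, and Asns, an asparagine synthetase gene, lay below wild type with 355 RPKM and 378 RPKM, against 428 RPKM. Outside the list and chosen after its values were seen, Cth, which makes cysteine from cystathionine, had 159 RPKM in knockdown 1 and 142 RPKM in knockdown 2, against 39.2 RPKM in wild type.

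The promoters of the called ATF4 genes were read for the CHOP and ATF4 composite element TGATGNAA, which these factors bind as a heterodimer, on both strands from 250 bases before to 50 bases after the start (RefSeq, GRCm38.p6). It occurred in 7 of 17 tested genes of the response with a promoter in the table (41.2%), in 4 of its 7 called genes, in 9 of the 99 higher genes with a promoter in the table (9.09%), in 3 of 143 lower genes (2.1%), in 2.67% of 8415 protein-coding genes tested and in 3.97% of all 32851 promoters. The 9 higher genes include the 4 called genes of the response, and the others were Bdnf, Fgf21, Gas2, Slc7a7 and Stk31. The list holds genes chosen as ATF4 response genes, so its share of this element is not independent of that choice. A match is a description of the letters and not a binding site. The 4 promoters are printed because they belong to called genes of this response; capitals mark the match, which reads TGATGNAA on the opposite strand. Its first base lies at -193 in Chac1 (chr2:119350992-119351291, plus strand), at 14 in Trib3 (chr2:152344011-152344310, minus strand), at -110 in Nupr1 (chr7:126625421-126625720, minus strand) and at -200 in Vldlr (chr19:27216770-27217069, plus strand), counted from the start of the gene.
Chac1: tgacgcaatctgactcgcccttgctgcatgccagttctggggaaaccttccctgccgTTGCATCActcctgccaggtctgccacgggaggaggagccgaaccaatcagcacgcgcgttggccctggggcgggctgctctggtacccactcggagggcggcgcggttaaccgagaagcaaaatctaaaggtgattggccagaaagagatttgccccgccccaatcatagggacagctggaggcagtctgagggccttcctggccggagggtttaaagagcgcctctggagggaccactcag
Trib3: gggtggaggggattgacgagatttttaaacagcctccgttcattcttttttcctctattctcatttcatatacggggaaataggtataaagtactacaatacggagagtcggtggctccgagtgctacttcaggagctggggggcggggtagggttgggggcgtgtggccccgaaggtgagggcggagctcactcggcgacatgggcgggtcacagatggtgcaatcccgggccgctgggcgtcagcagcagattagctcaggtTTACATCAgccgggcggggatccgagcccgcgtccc
Nupr1: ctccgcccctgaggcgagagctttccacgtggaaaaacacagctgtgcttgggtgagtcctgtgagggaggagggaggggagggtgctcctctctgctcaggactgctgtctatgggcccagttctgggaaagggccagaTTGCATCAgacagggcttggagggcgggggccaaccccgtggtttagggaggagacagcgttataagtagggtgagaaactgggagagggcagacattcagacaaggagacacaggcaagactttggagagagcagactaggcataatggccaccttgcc
Vldlr: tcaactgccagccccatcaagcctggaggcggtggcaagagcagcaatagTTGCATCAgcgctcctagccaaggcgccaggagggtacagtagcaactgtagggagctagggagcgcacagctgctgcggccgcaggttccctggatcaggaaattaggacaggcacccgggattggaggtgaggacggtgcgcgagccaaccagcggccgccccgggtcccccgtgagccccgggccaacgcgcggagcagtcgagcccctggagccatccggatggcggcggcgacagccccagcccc

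Chaperones of the endoplasmic reticulum fold secreted proteins and are the classic targets of ATF6 and XBP1 in the unfolded protein response. Of 17 chaperone and stress genes tested, Xbp1 among them, 2 (11.8%) were at least 2-fold lower with both hairpins and 0 higher. After centring on the median of all genes, neither of the 2 stayed 2-fold lower with both hairpins. Among all protein-coding genes tested, 1.58% were lower and 1.42% higher. Below wild type with both hairpins lay 15 of the 17. The 2 above wild type with both were Herpud1 and Pdia4. Their log2 ratios in knockdown 1 and knockdown 2 were 0.89 and 1.30 for Herpud1, and 0.43 and 1.35 for Pdia4. The list median was -0.67 in knockdown 1, -0.50 in knockdown 2 and -0.60 in Rad23b-null cells. Their summed level was 1887 RPKM in knockdown 1 and 1968 RPKM in knockdown 2, against 2952 RPKM in wild type. Hspa5, which encodes BiP, the main chaperone of this compartment, had 163 RPKM in knockdown 1 and 154 RPKM in knockdown 2, against 349 RPKM in wild type. Hyou1, a nucleotide exchange factor of BiP, had 26.5 RPKM and 32.8 RPKM with the hairpins, against 67.4 RPKM in wild type. The medians of the ATF4 list and of this list thus lay on opposite sides of wild type with both hairpins.

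The heat shock list, of cytosolic and mitochondrial chaperones, cochaperones and Hsf1, had 0 called genes of 17, with list medians of -0.43 in knockdown 1 and -0.60 in knockdown 2. The constitutive Hspa8 came nearest among the abundant ones, with 3518 RPKM in knockdown 1 and 2917 RPKM in knockdown 2, against 6518 RPKM in wild type. Hsp90ab1 had 3653 RPKM and 3302 RPKM with the hairpins, against 5212 RPKM in wild type. The proteasome, to which RAD23B can bring its cargo, had 1 of 31 subunit genes lower. This is 3.23%, against 1.58% of all protein-coding genes tested. With both hairpins 31 of 31 lay below wild type. Against the median of all genes 28 of the 31 lay below with both; 6 of the 31 are on chromosome 11, among them the called gene Psmc5, with 93.1 RPKM in knockdown 1 and 103 RPKM in knockdown 2, against 213 RPKM in wild type. Of the subunits on other chromosomes Psmb5, a catalytic subunit gene, had 467 RPKM and 438 RPKM, against 757 RPKM in wild type. Among 15 ubiquitin shuttles and partners of RAD23B, Stub1, the gene of the chaperone-linked ubiquitin ligase CHIP, was higher, with 747 RPKM in knockdown 1 and 915 RPKM in knockdown 2, against 51.2 RPKM in wild type. Its value rests on a locus with shared coordinates. The shuttle gene Ubqln1 had 79.2 RPKM and 78.1 RPKM, against 106 RPKM in wild type.

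Immediate early genes, which respond to growth factors through SRF and ETS factors within minutes, were divided. Of 16 tested, 3 were lower (18.8%) and 2 higher (12.5%) with both hairpins, against 1.58% and 1.42% of all protein-coding genes tested. Fos, a subunit of the AP-1 dimer, had 8.35 RPKM in knockdown 1 and 8.28 RPKM in knockdown 2, against 38.9 RPKM in wild type. Its relative Fosb had 0.387 RPKM and 0.323 RPKM with the hairpins, against 2.92 RPKM in wild type. Fosb passed the level filter through wild type alone. Egr1, a zinc finger factor of the ERK response, had 20.7 RPKM and 28.5 RPKM, against 59.0 RPKM in wild type. All 3 lay below wild type in both libraries, whereas the higher genes were Ier3 and Spry4. Ier3, a survival gene, had 94.1 RPKM in knockdown 1 and 107 RPKM in knockdown 2, against 46.1 RPKM in wild type. Spry4, a feedback inhibitor of receptor tyrosine kinases, had 28.8 RPKM and 31.4 RPKM with the hairpins, against 12.6 RPKM in wild type.

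**Figure D4:**
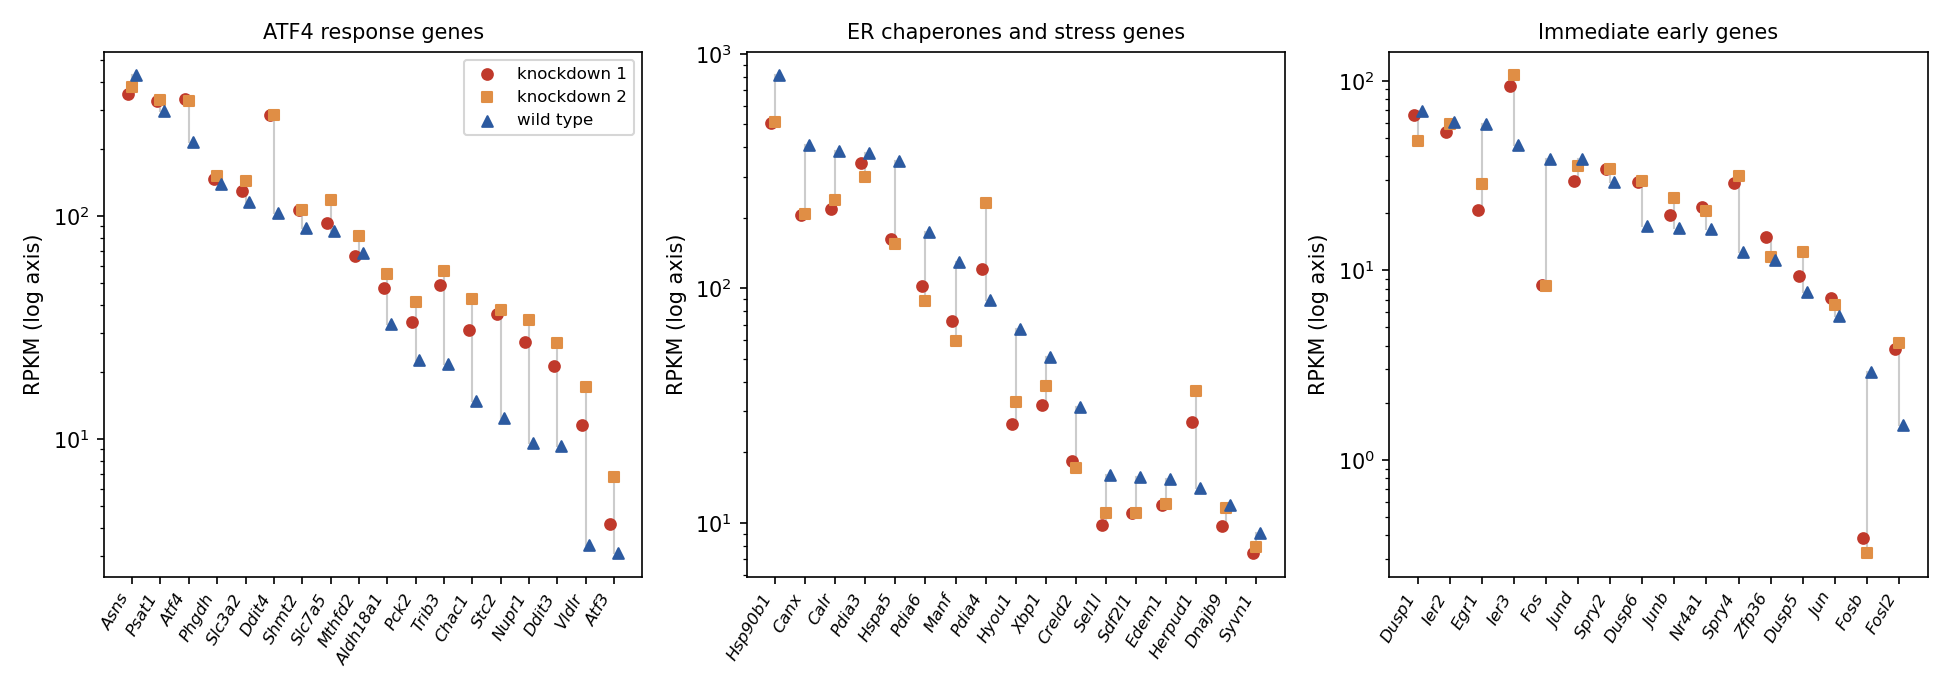
RPKM on log axes of ATF4 response genes (left), endoplasmic reticulum (ER) chaperones and stress genes (middle) and immediate early genes (right) in knockdown 1 (circles), knockdown 2 (squares) and wild type (triangles), for tested genes above 0 in all 3 libraries. In the left panel 16 genes lie above wild type with both hairpins, in the middle panel 15 lie below it, and in the right panel Fos, Fosb and Egr1 are lower.

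Actin and SRF target genes held 3 lower genes of 18 tested (16.7%) and 0 higher, against 1.58% and 1.42% of all protein-coding genes tested. The list median was -0.34 in knockdown 1, -0.64 in knockdown 2 and -0.45 in Rad23b-null cells. Actg1, the cytoplasmic gamma actin gene on chromosome 11, had 1269 RPKM in knockdown 1 and 944 RPKM in knockdown 2, against 3012 RPKM in wild type. Actb, its beta counterpart, had 1406 RPKM and 1185 RPKM with the hairpins, against 1985 RPKM in wild type. The muscle actins were near the floor: Acta1 had 0.443 RPKM in knockdown 1 and 0.255 RPKM in knockdown 2, against 3.34 RPKM in wild type. Acta2, the smooth muscle actin gene, had 0.127 RPKM and 0.114 RPKM, against 2.32 RPKM in wild type. Both muscle actins passed the level filter through wild type alone. The CArG box, the element SRF binds, occurred in 6 of 13 genes of this list with a promoter in the table, in 2.8% of the lower genes, in 2.02% of the higher genes and in 1.52% of the protein-coding genes tested. The 4 lower genes with a match were Acta1, Actg1, Lima1 and Myl3, of which Acta1 and Actg1 belong to the list. The list holds genes chosen as actin and SRF target genes, so its share of this element is not independent of that choice. The 2 actin promoters are printed for comparison with each other; capitals mark the CArG box, which reads as one on both strands and begins at -90 in Actg1 (chr11:120348446-120348745, minus strand) and at -73 in Acta1 (chr8:123894726-123895025, minus strand), from RefSeq, GRCm38.p6.
Actg1: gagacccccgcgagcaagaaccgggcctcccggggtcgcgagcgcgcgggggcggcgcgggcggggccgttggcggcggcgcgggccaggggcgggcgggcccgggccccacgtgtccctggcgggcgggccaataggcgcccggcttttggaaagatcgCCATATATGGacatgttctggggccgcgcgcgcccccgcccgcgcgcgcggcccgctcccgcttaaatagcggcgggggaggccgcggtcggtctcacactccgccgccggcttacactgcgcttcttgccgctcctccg
Acta1: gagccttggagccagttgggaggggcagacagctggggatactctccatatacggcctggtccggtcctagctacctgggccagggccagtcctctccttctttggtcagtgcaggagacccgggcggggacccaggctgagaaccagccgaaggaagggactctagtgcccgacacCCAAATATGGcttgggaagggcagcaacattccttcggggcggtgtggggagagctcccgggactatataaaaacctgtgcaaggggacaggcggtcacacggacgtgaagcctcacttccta

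Mouse stem cells break down threonine for one-carbon units, and Tdh, the threonine dehydrogenase that does so, had 110 RPKM in knockdown 1 and 68.9 RPKM in knockdown 2, against 426 RPKM in wild type. Shmt1, the cytosolic serine hydroxymethyltransferase on chromosome 11, had 56.7 RPKM and 46.7 RPKM with the hairpins, against 138 RPKM in wild type. These were the 2 called genes of 13 (15.4%) in the threonine and one-carbon list, in which 12 lay below wild type with both hairpins. The list median was -0.63 in knockdown 1, -0.72 in knockdown 2 and -0.86 in Rad23b-null cells. Of 29 cholesterol and fatty acid synthesis genes, 3 were lower (10.3%) and 0 higher. Among all protein-coding genes tested, 1.58% were lower and 1.42% higher. Scd1, a fatty acid desaturase gene, had 11.1 RPKM in knockdown 1 and 13.7 RPKM in knockdown 2, against 33.7 RPKM in wild type. Fdps, of the isoprenoid branch, had 51.0 RPKM and 50.9 RPKM, against 116 RPKM in wild type, and Fasn, the fatty acid synthase gene on chromosome 11, had 39.1 RPKM and 41.7 RPKM, against 88.2 RPKM.

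Glycolysis had 0 called genes of 16, with list medians of 0.02 in knockdown 1 and 0.01 in knockdown 2; Eno1, its most abundant member, had 3199 RPKM and 2873 RPKM, against 2859 RPKM in wild type. Hypoxia response genes had 2 higher of 14 tested (14.3%) and 0 lower, against 1.42% and 1.58% of all protein-coding genes tested. The list median was 0.61 in knockdown 1, 0.82 in knockdown 2 and 0.59 in Rad23b-null cells. Adm, the gene of the vasodilator adrenomedullin, had 50.8 RPKM in knockdown 1 and 75.9 RPKM in knockdown 2, against 12.7 RPKM in wild type. Ndrg1 had 77.2 RPKM and 72.7 RPKM with the hairpins, against 35.1 RPKM in wild type. Glycolysis and hypoxia genes share HIF1 as a regulator, and in these libraries the medians of the lists lay apart.

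**Figure D5:**
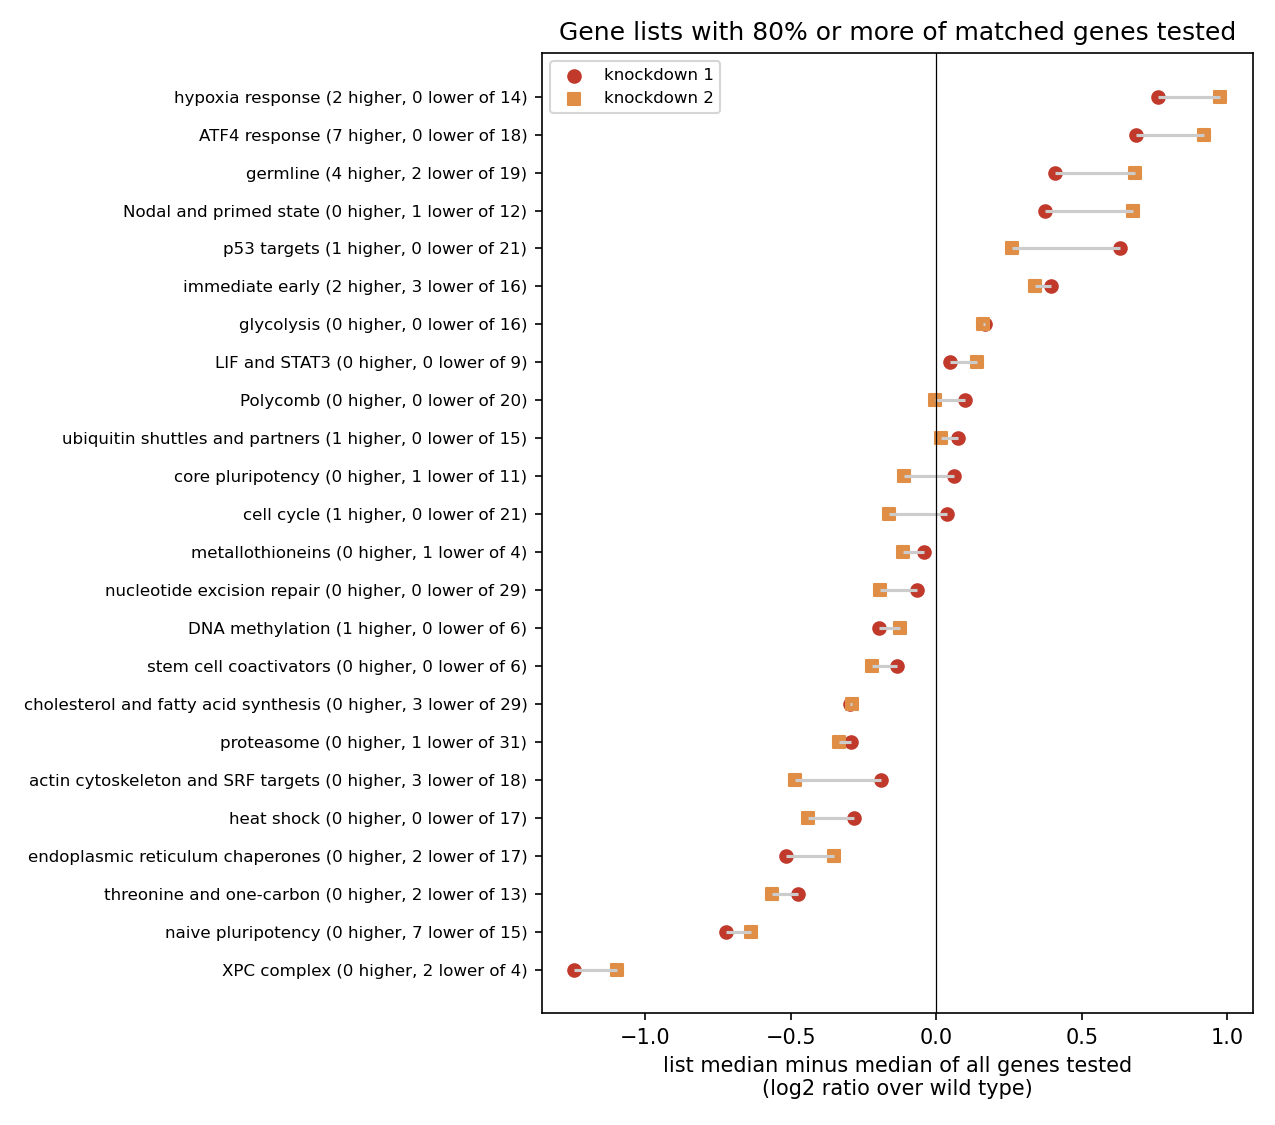
Median log2 ratio over wild type of each gene list minus the median of all genes tested (circles, knockdown 1; squares, knockdown 2), with the number of genes at least 2-fold higher or lower with both hairpins of those tested; only lists with 80% or more of the matched genes tested are drawn. Naive pluripotency (7 lower of 15) lies near the bottom and the ATF4 response (7 higher of 18) near the top.

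Many genes of the lineage lists are near 0 in wild type and meet the level filter only where a knockdown library lifts them, so the counts are given over all matched genes and are not set against the background shares. Of 16 trophectoderm genes, 3 were higher. Krt19, a keratin of simple epithelia on chromosome 11, had 69.5 RPKM in knockdown 1 and 62.7 RPKM in knockdown 2, against 14.8 RPKM in wild type. Ascl2, a factor of the trophoblast, had 14.5 RPKM and 12.9 RPKM with the hairpins, against 4.79 RPKM in wild type. Hand1, a factor of giant cells, had 3.48 RPKM and 1.70 RPKM, against 0.321 RPKM in wild type. The keratins Krt8 and Krt18 did not join Krt19: Krt8 had 18.8 RPKM in knockdown 1 and 10.8 RPKM in knockdown 2, against 20.9 RPKM in wild type. Krt18 had 20.6 RPKM and 12.1 RPKM, against 18.0 RPKM. Cdx2, the defining trophectoderm factor, stayed under 1 RPKM in all 3 libraries, and Tfap2c lay below wild type with 30.3 RPKM and 22.7 RPKM, against 57.7 RPKM.

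Of 18 BMP and mesoderm genes, 2 were higher. Id1, a direct target of BMP signalling, had 67.2 RPKM in knockdown 1 and 64.2 RPKM in knockdown 2, against 17.8 RPKM in wild type. Bmp4, the ligand gene, had 12.6 RPKM and 10.9 RPKM with the hairpins, against 4.25 RPKM in wild type. Id2 and Id3 differed between the hairpins: Id2 had 32.1 RPKM in knockdown 1 and 16.7 RPKM in knockdown 2, against 14.3 RPKM in wild type, and Id3 had 14.7 RPKM and 9.83 RPKM, against 10.3 RPKM. The streak gene T stayed under 1 RPKM in all 3 libraries. Of 17 primitive endoderm genes 0 were called, and of 13 neural genes 1 was lower, Neurog1, with 0.799 RPKM and 0.603 RPKM, against 4.13 RPKM in wild type. Neurog1 passed the level filter through wild type alone.

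Genes of the two-cell embryo, which a small share of stem cells turns on at any time, were at or near the floor in wild type. Of 14 matched genes 5 were at least 2-fold higher with both hairpins and 0 lower; their summed level was 14.3 RPKM in knockdown 1 and 24.8 RPKM in knockdown 2, against 1.76 RPKM in wild type. Zscan4f had 1.98 RPKM in knockdown 1 and 4.23 RPKM in knockdown 2, against 0.267 RPKM in wild type. Gm4340 had 3.85 RPKM and 6.29 RPKM with the hairpins, against 0.232 RPKM. Tcstv3 had 1.33 RPKM and 3.11 RPKM and was listed at 0 in wild type. Zscan4c and Zscan4e were the other called members, and the Zscan4 genes are near-identical copies whose reads the authors' counting could split. Knockdown 2 was the higher of the pair for all 5. In Rad23b-null cells Zscan4f had 5.22 RPKM, Gm4340 9.17 RPKM, Tcstv3 4.06 RPKM, Zscan4c 2.75 RPKM and Zscan4e 2.17 RPKM.

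Of 19 germline genes tested, 4 were higher (21.1%) and 2 lower (10.5%), against 1.42% and 1.58% of all protein-coding genes tested. The list median was 0.26 in knockdown 1, 0.53 in knockdown 2 and 0.85 in Rad23b-null cells. Stk31, a testis kinase-like gene, had 18.999 RPKM in knockdown 1 and 16.8 RPKM in knockdown 2, against 3.55 RPKM in wild type. Taf7l, a TFIID subunit gene of spermatocytes, had 13.7 RPKM and 15.7 RPKM with the hairpins, against 2.22 RPKM. Mael, of the piRNA pathway, had 24.8 RPKM and 23.8 RPKM, against 8.53 RPKM in wild type. Slc25a31 was the other higher gene, and Kit, the stem cell factor receptor gene, was lower with 17.1 RPKM and 17.8 RPKM, against 37.3 RPKM, as was Tuba3a. Dazl, a germ cell RNA-binding protein gene, had 32.8 RPKM in knockdown 1 and 29.1 RPKM in knockdown 2, against 31.3 RPKM in wild type. Dnmt3l, the cofactor of de novo methylation that germ cells and stem cells use, was higher. It had 471 RPKM in knockdown 1 and 449 RPKM in knockdown 2, against 177 RPKM in wild type. Dnmt3l was the 1 called gene of 6 tested in the DNA methylation list. In so short a list 1 called gene is not read as a result.

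The remaining lists had few called genes. Among all protein-coding genes tested 1.42% were higher and 1.58% lower, so 1 called gene in a short list is not read as a result. Of 29 nucleotide excision repair genes 0 were called; Pcna, the clamp of repair synthesis, had 296 RPKM in knockdown 1 and 274 RPKM in knockdown 2, against 391 RPKM in wild type, and Ddb1, a partner in damage recognition, had 283 RPKM and 248 RPKM, against 313 RPKM. Of 20 Polycomb genes 0 were called. Of 21 p53 targets 1 was higher, Btg2, an antiproliferative gene, with 25.6 RPKM in knockdown 1 and 24.3 RPKM in knockdown 2, against 11.4 RPKM in wild type. Trp53 itself, on chromosome 11 and chosen after its values were seen, was lower, with 175 RPKM in knockdown 1 and 149 RPKM in knockdown 2, against 375 RPKM in wild type. Of 21 cell cycle genes 1 was higher, Cdkn2a, which encodes the inhibitors p16 and ARF, with 10.8 RPKM and 9.22 RPKM, against 3.45 RPKM. Of 4 metallothioneins 1 was lower, Mt4, with 1.70 RPKM and 0.691 RPKM, against 5.96 RPKM in wild type, and of 19 imprinted genes 1 was lower, Nnat, with 0.286 RPKM and 1.01 RPKM, against 9.30 RPKM.

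Ranked by the smaller of the 2 log2 ratios, the higher genes with coordinates of their own began with Gm10982 (chr4:45122632-45126807, mm9), at 133 RPKM in knockdown 1 and 275 RPKM in knockdown 2, against 7.42 RPKM in Rad23b-null cells and 0.358 RPKM in wild type. Ncrna00085 (current symbol Spaca6) came next, with 51.3 RPKM in knockdown 1 and 26.2 RPKM in knockdown 2, against 1.93 RPKM in Rad23b-null cells and 2.004 RPKM in wild type. For both genes the hairpin libraries stood above the Rad23b-null library as well. The gene listed as 1-Sep (Sept1 by its identifier), a septin gene, had 132 RPKM in knockdown 1 and 175 RPKM in knockdown 2, against 23.0 RPKM in wild type. AU015836, on the X chromosome, had 109 RPKM and 78.7 RPKM with the hairpins, against 16.0 RPKM. Hist1h2ac, a replication-dependent histone gene, had 8.19 RPKM and 4.06 RPKM, against 0.209 RPKM in wild type. The rest of the first 15 were Eif2s3y, Taf7l, Krt19, Adm, Gm4340, Gm6763, Gm8766, Gm17576, Gm364 and 2410137M14Rik, and 6 of these 10 had under 1 RPKM in wild type. On shared coordinates the list began with Stub1, followed by Chpf2, a chondroitin polymerising factor gene, with 31.7 RPKM in knockdown 1 and 39.7 RPKM in knockdown 2, against 1.98 RPKM in wild type.

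The lower genes with coordinates of their own began with Gm10985, at 0.824 RPKM in knockdown 1 and listed at 0 in knockdown 2, against 30.5 RPKM in Rad23b-null cells and 11.4 RPKM in wild type. Klhdc7a had 0.302 RPKM and 0.180 RPKM with the hairpins, against 7.26 RPKM in wild type, and Usp26, a deubiquitinase gene on the X chromosome, had 0.912 RPKM and 1.34 RPKM, against 11.1 RPKM. After these came Xpc itself, Tspo2, Fos and Rad23b. Rgcc, listed as 1190002H23Rik, a cell cycle regulator gene, had 1.89 RPKM in knockdown 1 and 2.47 RPKM in knockdown 2, against 13.3 RPKM in wild type. Fgfr4, an FGF receptor gene, had 1.43 RPKM and 1.69 RPKM with the hairpins, against 9.78 RPKM in wild type. Trh (chr6:92192054-92194644, minus strand, mm9), the thyrotropin-releasing hormone gene, had 25.9 RPKM in knockdown 1 and 67.9 RPKM in knockdown 2, against 236 RPKM in wild type. It had the widest gap between hairpins of the genes in this paragraph that were above 0 in all libraries, with log2 ratios of -3.14 and -1.79. The rest of the first 15 were Mpi, Rragb, Plac8, Rpl39l and Hesx1, which are genes of mannose metabolism, of amino acid sensing by mTORC1, of a cysteine-rich protein, of a ribosomal protein paralogue and of a homeodomain repressor. On shared coordinates 5730522E02Rik came first, with 0.00795 RPKM in knockdown 1 and 0.0575 RPKM in knockdown 2, against 29.8 RPKM in wild type.

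Genes of other types added 141 higher and 138 lower genes, so that 313 of all 14546 genes (2.15%) were higher and 329 (2.26%) lower with both hairpins. Small RNA genes made up most of them, with 49 miRNA and 27 snoRNA genes among the higher and 44 and 37 among the lower. RPKM divides by the small length of these genes, so a few reads give a high value. Among the first by rank, AL807811.1 had 290 RPKM in knockdown 1 and 286 RPKM in knockdown 2 and was listed at 0 in wild type, and AC107678.1 was listed at 0 in both knockdown libraries, with 384 RPKM in wild type. Long intergenic RNA genes numbered 16 among the higher and 4 among the lower.

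RAD23B binding in wild-type cells gives a measure the expression rule did not use. It was mapped in another stem cell line, D3, and 38822 of the 59768 regions of replicate 1 overlapped a region of replicate 2 by at least 1 base. Among protein-coding genes with coordinates of their own and at least 1 RPKM in wild type, such a region lay within 1 kb of the start in 42 of 76 higher genes (55.3%), in 87 of 125 lower genes (69.6%) and in 5307 of 7017 others (75.6%). Wild-type level moved with this share, so the genes were also split by it. From 1 to 10 RPKM the shares were 49% of 49 higher genes, 48.6% of 35 lower genes and 67.8% of 2806 others. From 10 to 100 RPKM they were 64% of 25 higher genes, 75% of 60 lower genes and 80.6% of 3512 others. At 100 RPKM or more, 83.3% of 30 lower genes and 82.4% of 699 others had a region at the start. A window from 5 kb before to 5 kb after the gene gave shares nearer to each other at 1 RPKM or more. They were 78.9% of the higher genes, 86.4% of the lower genes and 85.4% of the others. This window spans the gene, and the median gene length was 13.1 kb, 11.6 kb and 18.2 kb in the same order. From 1 to 10 RPKM its shares were 71.4%, 82.9% and 81%, and from 10 to 100 RPKM they were 92%, 86.7% and 88.3%. The order of the groups thus differed between the windows and between levels, and no test was made. Genes under 1 RPKM in wild type are left out here, since they were tested only where a knockdown library lifted them. Prdm14, Lefty1, Btg2, Mael and Ddit4 were among the called genes with a region at the start. Esrrb, Dppa3, Chac1, Nupr1, Krt19, Adm, Taf7l and Fosb were among the called genes without one there.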

How the data were processed

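RNA was measured in 1 library each of Rad23b-/- cells with Xpc hairpin KD1, with Xpc hairpin KD2, without a hairpin, and of wild-type cells; groups were taken from the labels. Each deposited table sets 1 mutant library beside wild type as RPKM per gene, scaled by the authors per table, and was made on mm9 with TopHat2 2.0.6, Cufflinks 2.0.2 and Cuffdiff, per the submitters' processing notes. The authors' p-value per gene rests on no replicates and served only as an alternative filter. The authors' fold (ratio) of RAD23B over IgG reads in the region lists, per the file headers, was not used beyond the regions' positions. No RPKM value is 0, while 13841 wild-type values are exactly 1, so exactly 1 was read as 0. Of 36658 lines, 72 name no gene and were left out.

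The log2 ratio of RPKM + 1 was taken within each table, for genes that reached an RPKM of 1 in the knockdown or wild-type library of both tables, and genes at least 2-fold from wild type in the same direction in both were counted. With 1 library per group no test was made. The distance between hairpins is the only spread at hand, and it leaves out any error of the shared wild-type library. Genes were named by rank of the smaller log2 ratio: the 15 highest and 15 lowest with coordinates of their own, the first 5 on shared coordinates, the first 3 of other types, and called list members; exceptions are stated. The members and the lists were chosen with earlier results of these data known. Of a symbol with several lines, the line highest in wild type entered a list. Promoter sequences came from RefSeq (GRCm38.p6), matched by symbol. The counting was tested on simulated data, with changes above 2-fold in genes well above the level filter and no error in wild type. It does not show how often low genes or genes near 2-fold are called falsely. Alternatives were another pseudocount, level filter, fold, centring, own coordinates alone, exactly 1 kept, the authors' p-value, and chromosome 11 left out. Computations used Python 3.11.15, numpy 2.4.6, pandas 2.3.3 and matplotlib 3.10.9. Some genes are not reported here.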

Additional observations from a re-analysis of the deposited data

Results flagged for a closer look

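Gm10281, on shared coordinates of chromosome 10, was the 1 protein-coding gene at least 2-fold from wild type in opposite directions with the hairpins. Its log2 ratio was -2.21 in knockdown 1 and 4.42 in knockdown 2. It was listed at 0 in knockdown 1 and in Rad23b-null cells and had 98.4 RPKM in knockdown 2, against 3.62 RPKM in wild type. The difference between the hairpins was not tested.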

How the results depend on the processing

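No paired analysis was possible because each group has 1 library, and no library could be left out for the same reason. Among protein-coding genes, the 172 higher became 394 with a pseudocount of 0.1, 48 with a pseudocount of 5, 99 at an RPKM of at least 5, 93 with the authors' p-value under 0.05 in both tables, 591 at 1.5-fold and 39 at 3-fold. The 191 lower became 89 with a pseudocount of 5, 116 when centred, 125 with coordinates of their own alone, 80 with the authors' p-value, 984 at 1.5-fold and 27 at 3-fold. Over all types, the 313 higher became 610 and 115 with pseudocounts of 0.1 and 5, 184 at an RPKM of at least 5, 189 with own coordinates, 120 with the authors' p-value, 847 at 1.5-fold and 120 at 3-fold. The 329 lower became 169 with a pseudocount of 5, 182 with own coordinates, 88 with the authors' p-value, 1279 at 1.5-fold and 106 at 3-fold. In 2 alternatives chosen after seeing the data, leaving out chromosome 11 gave 127 lower protein-coding genes, and leaving it out with centring gave 83 lower protein-coding genes and 186 of all types. Of the 186 log2 ratios of the 93 named genes, 72 moved by more than the spread between hairpins with a pseudocount of 0.1, 102 with a pseudocount of 5 and 19 with exactly 1 kept, and 0 changed sign. Level and coordinate filters cannot change these values. With 1 library per group, depth and library effects cannot be told apart from genotype.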
